A study of Homo sapiens with 21 samples.

Results

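RNA of BJ cells at passage P33 was compared with that of BJ cells at passage P11, each in 3 libraries (replicates 1 to 3) and neither given DOX nor DMSO. BJ is an established line of human skin fibroblasts that was not immortalised, so a culture stops dividing after a limited number of population doublings. P11 is the passage that the study also gave DOX (doxorubicin, per the series title) at 50 ng/ml or DMSO, and it therefore serves as a baseline later than the earliest passage sampled, P3. The 6 libraries were chosen by passage alone, out of 21 in 7 groups of 3 (passages P3, P11, P24, P30 and P33 without treatment, then P11 with DOX and P11 with DMSO). No measured value entered that choice. The count filter passed 15642 of the 61544 genes listed, which were tested, and 45902 did not. All groups are of the same line, the labels name no clone, donor or pooling, and they leave unsaid whether each replicate was its own culture. The p-values thus reflect how far these libraries spread, which may be a technical spread. How long DOX was given is not stated in the labels.

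Cells near the end of their replicative lifespan enter senescence, a lasting arrest of the cell cycle held by the kinase inhibitors p21 (CDKN1A) and p16 (CDKN2A). Senescent fibroblasts are known for loss of lamin B1, for a secretory state called the senescence-associated secretory phenotype (SASP) made of cytokines, growth factors and proteases, and for late interferon signalling that follows the sensing of cytosolic nucleic acids. Doxorubicin poisons topoisomerase and breaks DNA, and can bring on senescence without many divisions.

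Levels are given as CPM, read counts divided by the library size, which was scaled by the trimmed mean of M-values (TMM). Differences are log2 fold changes, P33 minus P11, with their standard error (SE), and "called" means a Benjamini-Hochberg adjusted p under 0.05 in edgeR's quasi-likelihood test over all 15642 genes. Totals were 15 to 18.99 M read counts at P11 and 18.42 to 21.36 M at P33. The 17 fibroblast markers were all read in the 6 libraries and summed to 28530 to 29390 CPM at P11 and 20620 to 23340 at P33. Keratinocyte markers summed to 681.6 to 705.9 CPM at P11 and 510.7 to 555.2 at P33. KRT1, KRT5 and KRT6A were at 0, and DSP and PERP gave the most reads to the sum. Endothelial markers summed to at most 7.148 CPM and leukocyte markers to at most 3.323 CPM in any of the 6 libraries, CD3E and TYROBP at 0. Melanocyte and Schwann markers, nearly all MITF, summed to 28.51 to 33.56 and 42.83 to 43.78 CPM, with TYR and SOX10 at 0. Adipocyte and smooth muscle markers summed to 173.5 to 183.6 and 98.83 to 109.2 CPM. In bulk RNA, fewer cells of a type and less RNA per cell cannot be told apart.

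Several groups of genes moved together between P11 and P33. Histone, interferon-stimulated, SASP and stress-response transcripts were mostly higher at P33, and cholesterol, fatty acid, ribosomal protein and cell cycle transcripts mostly lower. Of the genes tested 63.3% were called, 32% higher at P33 and 31.3% lower and the shares of each list below are read against these. By at least 2-fold, 11% of all genes were called higher (1726 genes, or 1041 where a mean of at least 1 CPM was asked for) and 4.58% lower (716). Called genes whose 3 P33 libraries all lay above the 3 P11 libraries made up 30.6% of all tested, and those whose P33 libraries all lay below made up 29.8%. The median log2 difference over all tested genes was 0.01.

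**Figure D1:**
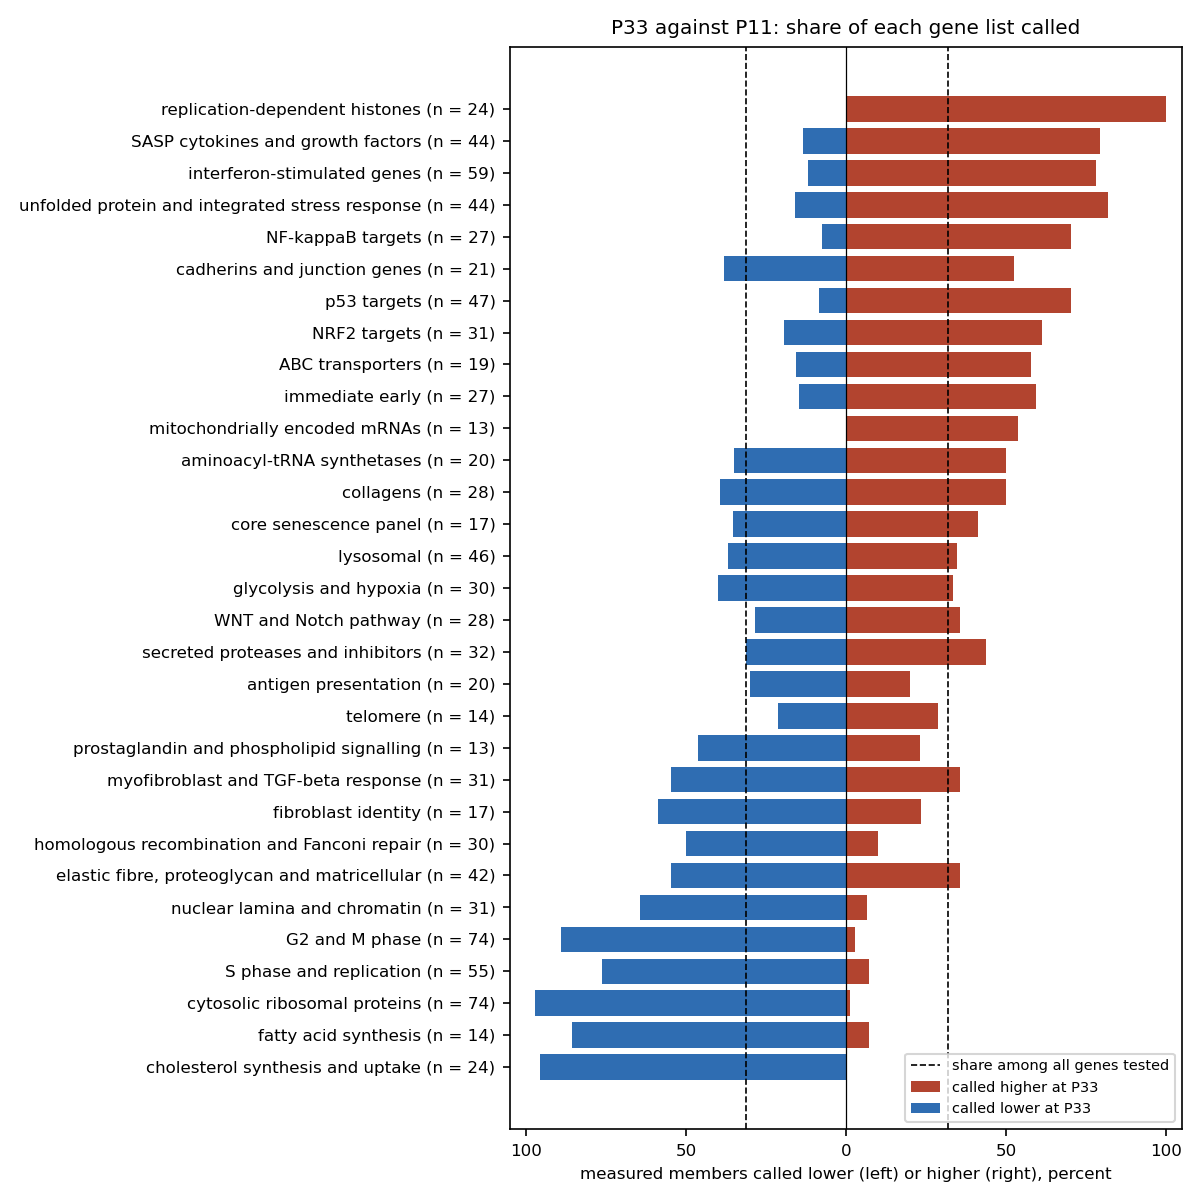
Percent of the measured members of each gene list called higher (red, right) or lower (blue, left) at P33 against P11, from 3 libraries each. Dashed lines mark the shares over all genes tested, 32% and 31.3%. All 24 histone genes measured were called higher and 23 of 24 cholesterol genes lower.

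Among long noncoding RNAs that passed the count filter, the calls leaned to the side of P33. Of 2284 tested, 996 were called higher and 200 lower, with a median log2 difference of 0.46, while of 12684 protein-coding genes 3820 were called higher and 4568 lower, with a median of -0.03. The share of all reads in long noncoding RNAs was 1.635%, 1.46% and 1.583% in the P11 libraries and 1.815%, 1.993% and 2.108% in the P33 libraries, so the groups did not overlap. Long noncoding genes and pseudogenes are often near copies of, or antisense to, other genes, and their counts are uncertain where the counting could split reads. Of 193 processed pseudogenes tested 20 were called higher and 68 lower. Genes of any type that passed the count filter through P33 alone had to be higher there. How many of the calls were of that kind was not counted.

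The interferon-stimulated genes are shown by sequence before their values, because most of their promoters carry the same short element. The interferon-stimulated response element, searched as GAAANNGAAA on both strands, is the DNA sequence that interferon-activated transcription factors bind. RefSeq promoters (GRCh38.p14, from 250 bases before to 50 after the start of transcription) matched by symbol for 45 of the 59 measured interferon-stimulated genes, and 29 of the 45 (64.4%) held a match. The share was 3.65% over all 27305 promoters in the table and 3.04% over the 11032 tested genes with a promoter. The match was found in 22 of 35 members called higher, in 4 of 5 called lower and in 3 of 5 not called, so it did not part the members by direction. IFI44L and IFI6 are printed below because they were the members with the largest rises at 1 CPM or more that held a match, a choice made after their values were seen. Each sequence is the 250 bases before the start, 5′ to 3′ on the gene's strand, with the matches in capitals. IFI44L lies on the plus strand (window chr1:78620198-78620447) and IFI6 on the minus strand (window chr1:27672193-27672442). Start sites are those of RefSeq and can differ from the gene limits of the count table: the IFI44L window lies wholly inside the gene as counted (78619902 to 78646145).
IFI44L: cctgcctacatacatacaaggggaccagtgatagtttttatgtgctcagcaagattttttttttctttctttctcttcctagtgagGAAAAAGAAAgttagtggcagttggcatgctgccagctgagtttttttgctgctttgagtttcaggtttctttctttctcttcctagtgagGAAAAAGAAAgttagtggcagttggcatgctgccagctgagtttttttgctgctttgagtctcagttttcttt
IFI6: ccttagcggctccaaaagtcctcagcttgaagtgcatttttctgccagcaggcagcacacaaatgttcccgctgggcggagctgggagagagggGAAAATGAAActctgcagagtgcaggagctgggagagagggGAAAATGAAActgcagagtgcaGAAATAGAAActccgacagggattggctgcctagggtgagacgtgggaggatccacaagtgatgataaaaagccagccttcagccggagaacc
IFI44L holds 2 matches, starting 164 and 73 bases before the start, each inside the same repeated stretch, and IFI6, which overlaps other genes on both strands, holds 3, starting 156, 115 and 93 bases before it. A match is a description of the letters and not a measured binding site.

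Interferon-stimulated genes were higher at P33 in most of the list. Of 59 measured, 46 were called higher and 7 lower, 23 and 4 of them by at least 2-fold, and the median log2 difference was 0.72. LAMP3, a lysosome-associated membrane protein induced by interferon, was read at 0.05378, 0.3055 and 0.4573 CPM at P11 and at 31.9, 34.85 and 37.97 CPM at P33, a log2 difference of 7.02 (SE 0.23). RSAD2, the antiviral enzyme viperin, was read at 1.129, 7.79 and 2.613 CPM at P11 and at 22.82, 23.96 and 17.72 CPM at P33 (log2 difference 2.44, SE 0.34, adjusted p = 6.976e-07). OAS1, which makes the 2-5A messenger that activates RNase L, was read at 5.862, 22.45 and 10.84 CPM at P11 and at 58.89, 59.5 and 49.62 CPM at P33 (log2 difference 2.08, SE 0.26). IFI44L was read at 14.31, 62.68 and 26.98 CPM at P11 and at 122.7, 133.5 and 104.8 CPM at P33. P11 replicate 2 was the highest of the P11 libraries for RSAD2, OAS1 and IFI44L, and P11 replicate 3 for LAMP3, and in these 4 genes no P11 library reached a P33 library.

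P11 replicate 2 stood above the other P11 libraries over the whole interferon list. The mean log2(CPM + 1) over the 59 genes was 4.645, 5.486 and 5.006 at P11 and 5.875, 5.94 and 5.75 at P33. Without P11 replicate 2 the counts were 49 higher and 5 lower, with a median of 1.03, and without P11 replicate 1 they were 39 and 7, with a median of 0.56. The log2 differences without P11 replicate 2 were 3.57 for RSAD2 and 2.78 for OAS1. The 7 members lower at P33 were APOL1, IFI27, RTP4, LGALS3BP, IFITM2, GBP1 and IFI16. APOL1, an apolipoprotein of the blood lipoproteins, fell from 6.239, 8.656 and 6.468 CPM to 1.728, 1.627 and 1.721 CPM (log2 difference -2.08, SE 0.17). LGALS3BP, a secreted galectin-binding glycoprotein, had a log2 difference of -1.19. OASL, IFIT1, ISG20, PLSCR1, UBE2L6 and STAT2 were not called (log2 differences 0.70, 0.41, 0.30, 0.26, 0.25 and 0.08).

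The size of the interferon difference depended on the baseline. P11 itself lay above P3 for this list, with 36 of 59 genes called higher and none lower and a median log2 difference of 0.54. Over all genes 24.6% were called higher and 27.8% lower at P11 against P3. The median of P33 against P3 was 1.26, beside 0.72 against P11. These differences share libraries and are given side by side only. The P30 libraries had a mean level of 5.679, 5.859 and 5.979, so they overlapped the P33 libraries, and the median of P33 minus P30 was 0.02. LAMP3 departed from the list here, with a P33 minus P30 log2 difference of 3.44.

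**Figure D2:**
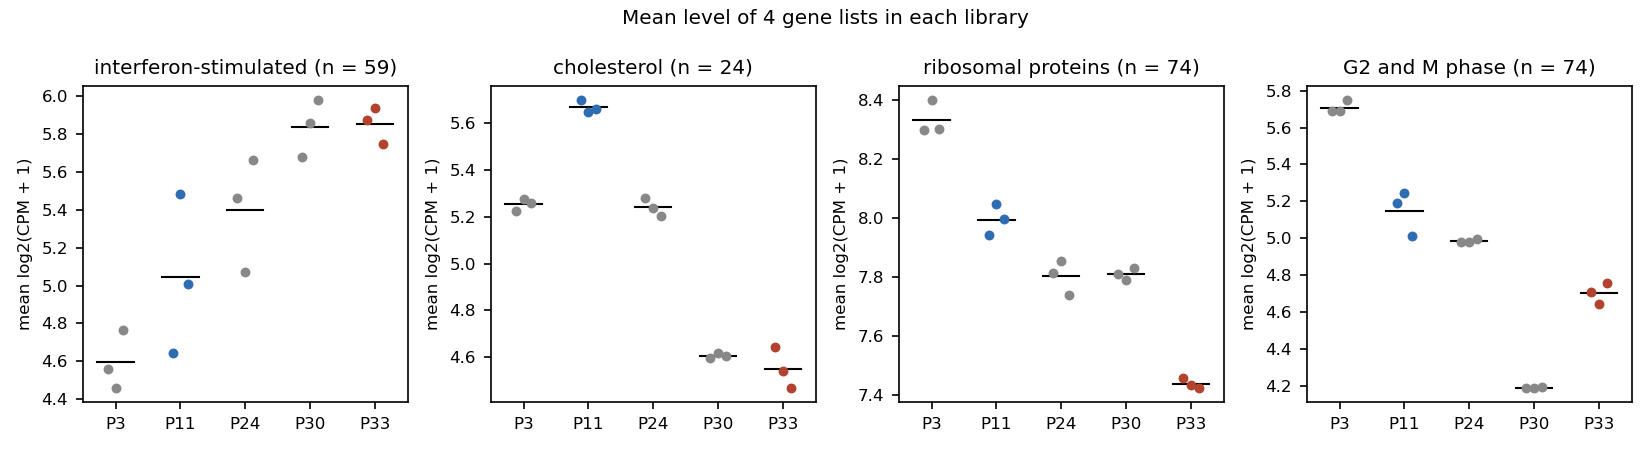
Mean log2(CPM + 1) over the measured members of 4 gene lists in each library by passage, with P11 in blue, P33 in red and the other passages in grey, and a line at the mean of 3 libraries. The vertical axes do not start at 0. For interferon-stimulated genes the P11 libraries spread from 4.645 to 5.486, and the P33 libraries from 5.75 to 5.94.

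Cholesterol genes were lower at P33 almost throughout. Cholesterol is made from acetyl-CoA by enzymes of the mevalonate pathway, which the factor SREBF2 induces when membrane sterol is low and which INSIG1 restrains. Of 24 measured genes of synthesis and uptake 23 were called lower and none higher, 17 of them by at least 2-fold, with a median log2 difference of -1.26. ACAT2, which joins acetyl-CoA units at the head of the pathway, was read at 113.4, 107.7 and 107.9 CPM at P11 and at 22.69, 20.36 and 23.75 CPM at P33 (4.93-fold lower, adjusted p = 9.410e-21). INSIG1 went from 214.9, 182.4 and 205.5 CPM to 57.78, 43.63 and 51.14 CPM (log2 difference -1.98, SE 0.11). TM7SF2, a sterol reductase, had a log2 difference of -1.99 but overlaps another gene on the same strand. FDFT1, squalene synthase, was the member not called (log2 difference -0.05).

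Fatty acid synthesis moved the same way. Of 14 measured genes 12 were called lower and 1, the NADPH-forming malic enzyme ME1, higher (log2 difference 0.43). SCD, the desaturase that makes oleic acid, was read at 1075, 963.1 and 1040 CPM at P11 and at 252.1, 250.5 and 229.3 CPM at P33 (4.21-fold lower, log2 difference -2.07, SE 0.06). FASN, fatty acid synthase, went from 220.7, 244.9 and 220.7 CPM to 93.1, 98.35 and 86.83 CPM. FADS2, a desaturase of polyunsaturated fatty acids, fell 3.60-fold and ACSS2, which activates acetate, 2.28-fold. FADS2 overlaps another gene on the same strand. LIPA, the lysosomal acid lipase that frees cholesterol from lipoprotein esters, fell from 283.5, 264.5 and 284.7 CPM to 92.34, 91.5 and 90.38 CPM. The lysosomal list as a whole was divided, 16 of 46 higher (34.8%) and 17 lower (37%), beside 32% and 31.3% over all genes tested.

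For sterol genes P11 held the highest level of the 5 passages. Of the 24 genes 21 were called higher and 1 lower at P11 against P3, so the median against P3 was -0.80 where that against P11 was -1.26. The mean log2(CPM + 1) of the list ran from 5.225 to 5.276 at P3 and from 5.649 to 5.699 at P11. It was 5.205 to 5.282 in the P24 libraries, 4.596 to 4.617 in those of P30 and 4.467 to 4.642 in those of P33. The sterol regulatory element, searched as TCACNCCAC on both strands, was found in 1 of 17 promoters matched for the list, that of SREBF2, and in 1.15% of all promoters. SREBF2 itself was read at 127.7, 124.7 and 130.7 CPM at P11 and at 76.7, 70.54 and 73.11 CPM at P33 (log2 difference -0.80), and it overlaps another gene on the same strand.

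Ribosomal protein mRNAs were lower by a small and even amount. Of 74 measured genes of the cytosolic ribosome 72 were called lower and 1 higher, none by 2-fold, and the median log2 difference was -0.57. RPS18, of the small subunit, was read at 342.1, 343.6 and 340.0 CPM at P11 and at 176.6, 177.8 and 166.1 CPM at P33 (1.97-fold lower, adjusted p = 3.662e-12). RPS2 and RPL10 fell 1.91-fold and 1.84-fold, and RPS26 1.85-fold. RPL22 was the member called higher (log2 difference 0.42), with 0 called higher without P11 replicate 3 or without P33 replicate 1, and RPS29 was not called (0.02). Ribosomal protein genes have many processed pseudogenes and 37 of the 74 overlap a same-strand neighbour, so single values are uncertain. When overlapping genes were left out, 37 of 37 were still lower. The mean log2(CPM + 1) was 7.941 to 8.047 at P11 and 7.423 to 7.457 at P33, without overlap.

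Cell cycle genes were lower at P33, though less so than at P30. Of 74 G2 and M phase genes 66 were called lower and 2, CENPA and AURKA, higher, with 1 lower by at least 2-fold and a median of -0.48. Both calls of higher were lost without P11 replicate 3, without P33 replicate 3 and with all 21 libraries in the fit, and 1 of them without P11 replicate 2 or without P33 replicate 1. Of 55 S phase genes 42 were called lower and 4 higher, with a median of -0.50. NUF2, a kinetochore subunit, went from 27, 26.83 and 21.62 CPM to 11.52, 9.712 and 11.7 CPM (log2 difference -1.20, SE 0.09). CDCA7, a chromatin factor of S phase, fell 3.01-fold, POLE2, a subunit of DNA polymerase epsilon, 2.44-fold and ORC1, of the origin recognition complex, 2.14-fold. The 4 S phase genes higher at P33 were CCNE1, CDC6, ORC6 and E2F1 (log2 differences 0.42, 0.32, 0.27 and 0.26), of which CCNE1 encodes cyclin E and E2F1 the factor that induces it. Without P33 replicate 2 the list had 2 higher.

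For the cell cycle P30 lay below P33. The median of the G2 and M phase list against P11 was -0.16 at P24, -1.05 at P30 and -0.48 at P33, and P33 minus P30 was 0.57. Its mean log2(CPM + 1) was 4.19 to 4.193 at P30 and 4.647 to 4.758 at P33. The list had already fallen by P11, where 64 of 74 genes were called lower than at P3 and 2 higher. Homologous recombination and Fanconi repair genes had 15 of 30 members lower and 3 higher, with BLM, a helicase, at 7.422, 7.179 and 6.664 CPM against 3.456, 3.845 and 3.139 CPM.

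**Figure D3:**
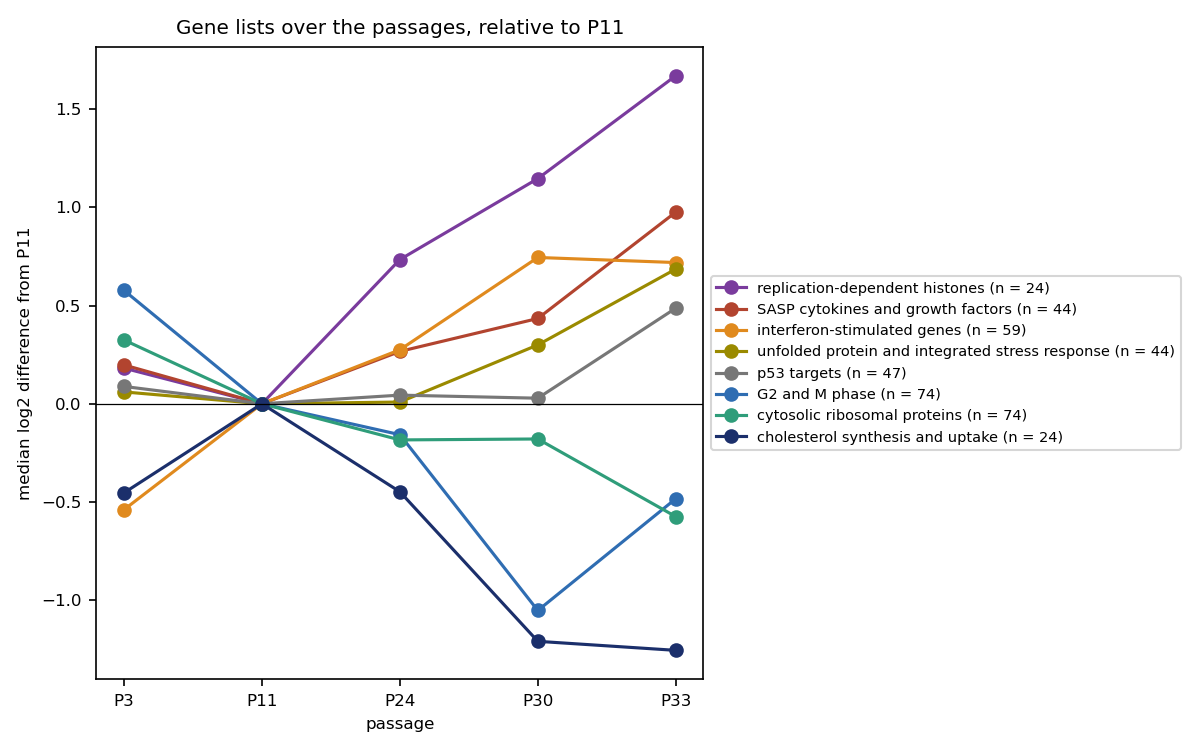
Median log2 difference from P11 of 8 gene lists at each passage, with P11 set at 0 and n the measured members. G2 and M phase genes stand at -1.05 at P30 and -0.48 at P33. Cholesterol genes stand at -1.21 at P30 and -1.26 at P33, and histone genes at 1.15 and 1.67.

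Among the 17 genes of the core senescence panel 7 were called higher, 6 lower and 4 not called. CDKN1A, p21, was read at 204.8, 223.6 and 214.8 CPM at P11 and at 305.0, 301.4 and 302.7 CPM at P33, 1.41-fold higher (log2 difference 0.50, SE 0.05, adjusted p = 6.576e-10). CDKN2B, p15, went from 16.78, 14.66 and 16.01 CPM to 44.89, 36.73 and 53.62 CPM (log2 difference 1.51, SE 0.11). CDKN2A, p16 and ARF, was read at 12.21, 13.8 and 10.84 CPM at P11 and at 12.23, 10.89 and 14.18 CPM at P33 (log2 difference 0.01, SE 0.11, adjusted p = 0.9546), so the groups overlapped. Against P3 the same gene had a log2 difference of -0.48, because P11 already lay lower (-0.49). RB1 and TP53BP1 were not called (log2 differences -0.09 and -0.10). CDKN1A, CDKN2B, CDKN2A, RB1 and TP53BP1 each overlap a gene on the opposite strand. The strand option of the counting is not known, so reads of the neighbour cannot be told apart there.

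Lamin B1 and the proliferation marker were lower. LMNB1 went from 45.02, 42.52 and 36.85 CPM to 15.86, 16.12 and 15.29 CPM (2.64-fold lower, log2 difference -1.40, SE 0.07). MKI67, Ki-67, went from 306.0, 266.8 and 260.1 CPM to 165.7, 160.8 and 155.7 CPM (log2 difference -0.79, SE 0.06). LMNA, of the A-type lamins, went from 1499, 1641 and 1475 CPM to 708.7, 762.4 and 686.7 CPM, and LBR, the lamin B receptor, fell 1.74-fold. In the nuclear lamina and chromatin list 20 of 31 genes were called lower and 2 higher. CDKN2C, HMGB2, CDKN1B and HMGB1 were lower, with log2 differences of -0.71, -0.41, -0.30 and -0.25. GLB1, the lysosomal beta-galactosidase used to stain senescent cells, had a log2 difference of 0.16 (adjusted p = 0.02003), a call lost without P11 replicate 2 (adjusted p = 0.1125) and without P33 replicate 2 (adjusted p = 0.1431), and also without a count filter (0.08936) and with all 21 libraries in the fit (0.06258). HMGB1, RB1 and GLB1 lie across a neighbour on the same strand.

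Targets of p53 were mostly higher. Of 47 measured 33 were called higher and 4 lower, 10 higher by at least 2-fold, with a median of 0.49. GDF15, a stress-induced cytokine, went from 18.45, 21.64 and 21.62 CPM to 139.5, 136.3 and 159.6 CPM (7.06-fold) and overlaps another gene on the same strand. PMAIP1, the pro-apoptotic NOXA, rose 3.16-fold and SESN2, a sestrin that restrains mTORC1, 2.83-fold. The 4 members lower were TP53I3, RPS27L, PGF and ASCC3 (log2 differences -0.64, -0.58, -0.35 and -0.27). The median of the list was 0.04 at P24 and 0.03 at P30 against P11.

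SASP cytokines and growth factors were higher in most of the list. Of 44 measured 35 were called higher and 6 lower, 22 and 3 by at least 2-fold, with a median of 0.98. CXCL8, interleukin 8, was read at 0.3227, 0.9674 and 0.3266 CPM at P11 and at 5.184, 4.042 and 6.582 CPM at P33 (log2 difference 3.22, SE 0.29, and 3.99 without P11 replicate 2). ESM1, a proteoglycan of endothelium, went from 3.926, 4.073 and 4.377 CPM to 54.37, 39.39 and 55.14 CPM and overlaps another gene on the same strand. CXCL2, a neutrophil chemokine, went from 0.3227, 0.3564 and 0.06533 CPM to 4.653, 2.662 and 4.202 CPM. CCL5, a T cell chemokine, had 2 reads over the P11 libraries and 119 over the P33 libraries, a ratio of 50.9 with a 95% counting interval of 13.78 to 425 that covers counting error only. ANGPTL4, an inhibitor of lipoprotein lipase, had 13 reads over the P11 libraries and 226 over the P33 libraries. Its log2 difference was 3.86, and 5.25 without P11 replicate 2.

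Some well-known SASP members did not follow the list. IL6, interleukin 6, was read at 4.518, 4.939 and 7.121 CPM at P11 and at 8.729, 5.423 and 7.19 CPM at P33 (log2 difference 0.39, SE 0.19, adjusted p = 0.0726), with overlapping groups. Without P11 replicate 3 or without P33 replicate 2 it was called (adjusted p = 0.01524 and 0.01395). CXCL12, the chemokine that holds stem cells in their niche, fell 9.31-fold, from 167.1 ± 5.23 to 17.9 ± 2.0 CPM (SD, n = 3). IL18 and INHBA, the inhibin beta A subunit of activin, had log2 differences of -2.78 and -2.43, and BMP2, PDGFA and TGFB1 of -0.72, -0.21 and -0.15. In the NF-kappaB target list, which shares CXCL8, CXCL2 and IL6 with the SASP list, 19 of 27 were called higher and 2 lower, with a median of 0.60.

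PLAT and PAPPA2, both secreted proteases, were among the 10 largest rises. PLAT, tissue plasminogen activator, was read at 46.79, 51.37 and 45.6 CPM at P11 and at 1013, 1007 and 1025 CPM at P33, 21.2-fold higher (log2 difference 4.40, SE 0.07, adjusted p = 7.223e-25). P11 lay below P3 for PLAT (log2 difference -0.98), so against P3 the log2 difference was 3.42. PAPPA2, a metalloprotease that cleaves IGF-binding proteins, was read at 0.05378, 0.2037 and 0.1307 CPM at P11 and at 15.91, 18.63 and 21.16 CPM at P33, and its relative PAPPA rose 5.12-fold. MMP12, the macrophage elastase, had a log2 difference of 2.27, from 20 reads over the P11 libraries and 114 over the P33 libraries. The protease list as a whole was divided, 14 of 32 higher (43.8%) and 10 lower (31.2%), beside 32% and 31.3% over all genes tested.

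IGF-binding proteins carry insulin-like growth factors and can hold them from their receptor. Of 6 measured 5 were called higher and none lower, and IGFBP6 was not called (log2 difference -0.04). IGFBP5 was read at 3041, 2994 and 2976 CPM at P11 and at 10110, 9425 and 9664 CPM at P33 (3.24-fold). IGFBP2 went from 13.93, 15.68 and 15.94 CPM to 146.5, 135.8 and 139.5 CPM (9.27-fold), IGFBP3 rose 3.77-fold and IGFBP7 1.40-fold. P11 lay below P3 for IGFBP2 (log2 difference -1.82), so its difference from P3 was 1.40 where that from P11 was 3.21.

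Replication-dependent histone genes were higher without exception among those measured. Their mRNAs normally end in a stem-loop without a poly(A) tail, and the libraries were made from poly(A)-selected RNA, so the counts come mainly from tailed transcripts and total histone mRNA was not measured. Of 63 listed 24 passed the count filter, all 24 were called higher and 21 by at least 2-fold, with a median of 1.67. H4C8 went from 8.175, 7.841 and 8.885 CPM to 46.53, 47.28 and 50.58 CPM (5.82-fold). H2BC4 went from 3.819, 3.819 and 3.528 CPM to 26.5, 23.22 and 20.66 CPM, and H2BC18 rose 7.20-fold, its span overlapped by a neighbour's. H2AC19, with 10 reads over the P11 libraries and 96 over the P33 libraries, had a log2 difference of 3.003, and 2.38 without P33 replicate 3. Histone genes are near-identical copies, so the share of each is uncertain. Members that passed the filter through P33 alone had to be higher there.

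Stress-response genes were higher, but chaperones of the endoplasmic reticulum were not all so. The unfolded protein and integrated stress response slow translation when proteins misfold or amino acids run short, and induce genes through ATF4 and its partner DDIT3. Of 44 measured genes 36 were called higher and 7 lower, 16 higher by at least 2-fold, with a median of 0.69. ATF3, a stress-induced repressor, went from 4.141, 4.277 and 3.724 CPM to 29.55, 24.45 and 28.15 CPM (6.73-fold, adjusted p = 1.701e-15). TRIB3, a pseudokinase that restrains ATF4, rose 6.12-fold and PSAT1, of serine synthesis, went from 17.1, 18.69 and 17.83 CPM to 95.8, 101.0 and 109.8 CPM. DDIT3, CHOP, rose 4.98-fold and overlaps other genes. The 7 members lower were MANF, HSP90B1, SDF2L1, PDIA6, PDIA4, CRELD2 and ATF5, of which HSP90B1 and the PDIA enzymes fold proteins in the endoplasmic reticulum (log2 differences from -0.68 for MANF to -0.28 for ATF5).

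The element to which ATF4 and C/EBP factors bind, searched as TGATGNAA on both strands, was found in the RefSeq promoters of 5 of 39 matched members (12.8%). These were 5 of the 32 matched members called higher and 0 of the 7 called lower, too few to set the directions apart. It was present in 3.67% of all promoters and in 1.81% of those of tested genes. CHAC1, an enzyme that degrades glutathione and a target of ATF4, is printed as a known target of ATF4 with a match in its promoter, a choice made after its values were seen, with the match in capitals (plus strand, window chr15:40953221-40953470, the 250 bases before the RefSeq start, which lie wholly inside the gene as counted, 40952962 to 40956512).
CHAC1: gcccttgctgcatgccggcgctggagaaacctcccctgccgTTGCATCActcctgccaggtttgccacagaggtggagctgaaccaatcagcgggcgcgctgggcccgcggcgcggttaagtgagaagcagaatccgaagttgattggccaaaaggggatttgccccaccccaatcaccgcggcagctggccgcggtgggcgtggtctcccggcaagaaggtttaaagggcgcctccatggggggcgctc
The match starts 209 bases before the start and lies on the opposite strand to the letters searched. CHAC1 was read at 3.98, 5.906 and 5.03 CPM at P11 and at 12.14, 13.01 and 12.25 CPM at P33, a log2 difference of 1.32 (SE 0.14). Targets of NRF2, which guard against oxidants, had 19 of 31 members higher and 6 lower, led by the cystine transporter SLC7A11, from 46.63, 46.69 and 42.33 CPM to 190.3, 193.4 and 204.1 CPM. AKR1B1, aldose reductase, rose 3.27-fold and GCLM, of glutathione synthesis, 2.40-fold. Of 20 aminoacyl-tRNA synthetases 10 were called higher and 7 lower, with WARS1 2.21-fold higher and QARS1, which overlaps another gene, 2.02-fold lower. WARS1, MARS1 and CARS1 were the 3 largest rises in that list.

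The largest single rises were in genes close to silence at P11. PCDH1, a protocadherin of cell contacts, lies on chromosome 5 (141853090 to 141879246, minus strand, hg38 and GRCh38.p13), and had 2 reads over the P11 libraries and 603 over the P33 libraries, a ratio of 258 with a 95% counting interval of 71.07 to 2134. KLHDC7B had 2 and 428 reads, a ratio of 183 (50.36 to 1516). PCDH1 was read at 0, 0.05092 and 0.06533 CPM at P11 and at 8.375, 9.514 and 11.19 CPM at P33. SLITRK6, a neuronal membrane protein, went from 0, 0.1018 and 0.1307 CPM to 10.01, 9.761 and 12.76 CPM. TNFSF18, the ligand of the T cell receptor GITR, rose 33.2-fold to 14, 12.23 and 19.14 CPM, and C3orf80 21.6-fold. JAM2, a junction adhesion molecule that overlaps another gene, went from 0.2689, 0.4073 and 0.5226 CPM to 32.79, 32.98 and 32.05 CPM, and CLDN1, a tight junction claudin, from 3.066, 2.8 and 2.352 CPM to 36.78, 35.79 and 48.25 CPM.

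The multidrug efflux pump P-glycoprotein, encoded by ABCB1, was read at 0.6454, 0.9165 and 0.6533 CPM at P11 and at 44.89, 56.35 and 49.87 CPM at P33, 66.8-fold higher (log2 difference 6.06, SE 0.13). RUNDC3B, which rose 44.4-fold, overlaps ABCB1 on the opposite strand, and no source used here gives the strand option of the counting, so the reads of the pair cannot be told apart. ABCG1, a sterol exporter that overlaps another gene, had a log2 difference of 4.09, ABCA3 of 2.32 and ABCA8 of 1.90. The value of ABCG1 rests on 13 reads over the P11 libraries and 266 over the P33 libraries. In the ABC transporter list 11 of 19 were called higher and 3 lower.

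Among the 10 largest falls the first by the fitted estimate was a receptor, with 1 read at P33. CHRM3, the muscarinic acetylcholine receptor M3, lies on chromosome 1 (239386565 to 239915452, plus strand) and had 272 reads over the P11 libraries and 1 over the P33 libraries, a ratio of 318 with a counting interval of 56.6 to 12610. It was read at 4.787, 5.805 and 4.508 CPM at P11 and at 0, 0.0493 and 0 CPM at P33. OLFML2A, a secreted olfactomedin protein, went from 44.32, 36.25 and 40.31 CPM to 2.171, 1.232 and 1.721 CPM (23.3-fold lower), and P11 lay above P3 for it (log2 difference 1.19). CNTN3, a contactin of the immunoglobulin family, went from 30.98, 28.72 and 29.27 CPM to 1.551, 1.232 and 1.468 CPM (20.8-fold lower). C1orf115 fell 18.1-fold, PPP1R14A, which inhibits myosin phosphatase, 16.4-fold, OLFML1 14.6-fold and MEDAG 14.6-fold. ZIC1, a zinc finger factor of patterning, fell 13.4-fold, the formin FMNL1 12.7-fold and NFE2L3, a relative of NRF2, 12.4-fold. In each of these 10 genes no P33 library reached a P11 library, which the rule that chose them required.

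**Figure D4:**
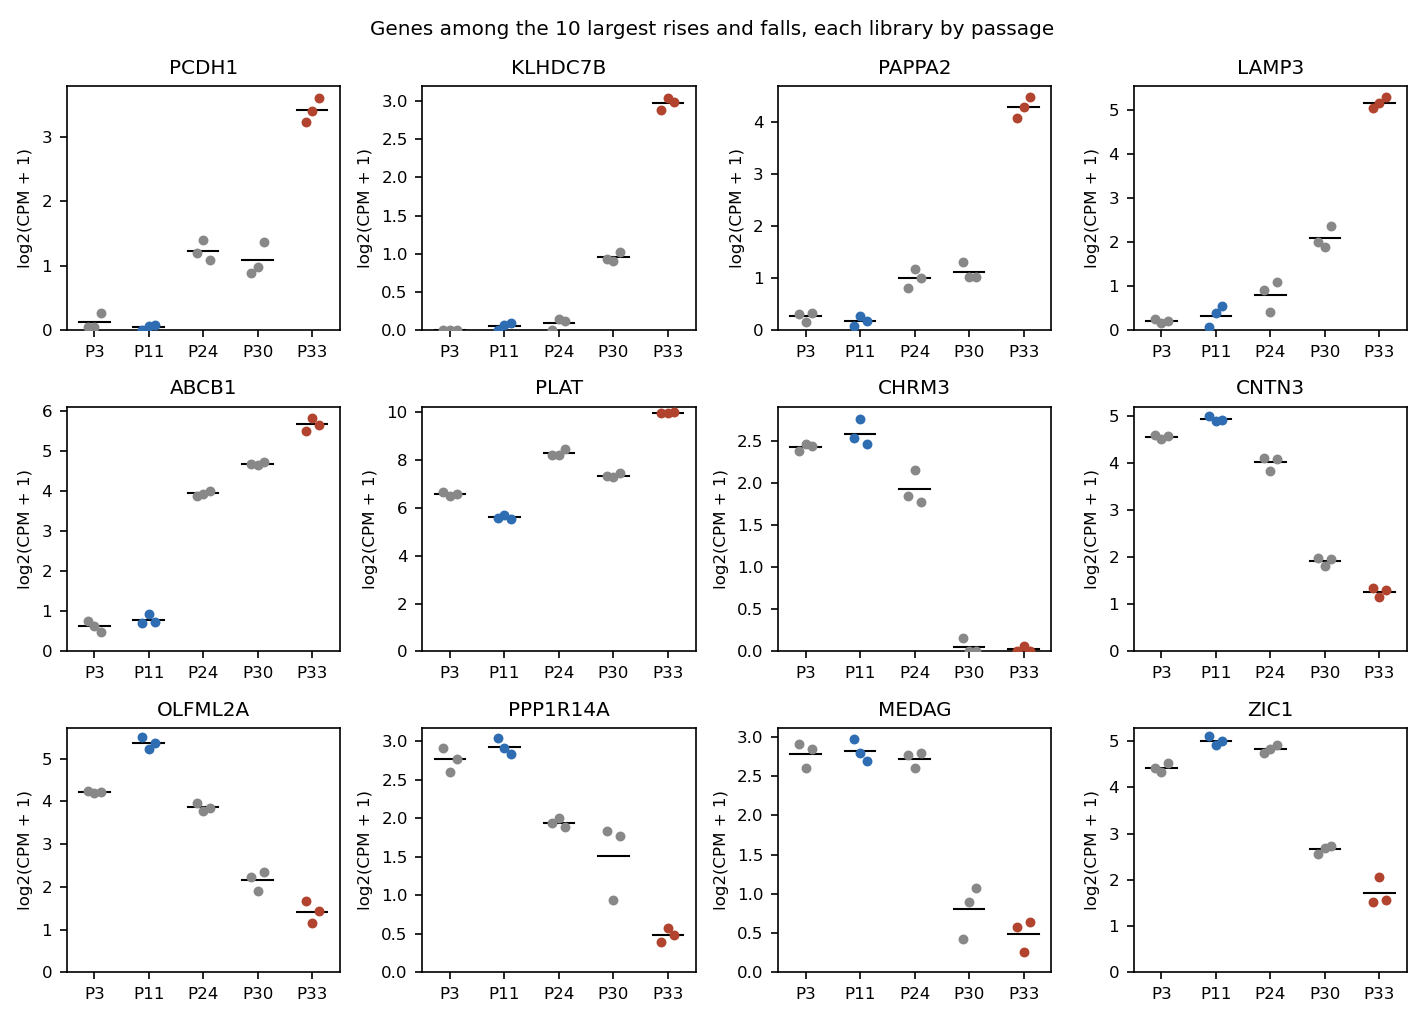
Level of 6 of the 10 largest rises and 6 of the 10 largest falls, as log2(CPM + 1), in each of 3 libraries per passage, with P11 in blue, P33 in red and other passages in grey, and a line at the mean. Each panel has its own axis, starting at 0. PLAT lies between 1007 and 1025 CPM in the P33 libraries and between 45.6 and 51.37 CPM at P11.

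The steps between the passages in which these changes fell differed by direction. For 915 of the 1726 genes higher by at least 2-fold (53%) the largest of the 3 steps between P11, P24, P30 and P33 was the last, and for 573 (33.2%) it was the step to P24. For 323 of the 716 genes lower by at least 2-fold (45.1%) it was the step from P24 to P30. Of the genes higher 614 moved up in all 3 steps, and 283 lay on the other side of P11 at P30. Of the genes lower the counts were 324 and 38. PAPPA2 had 1.184 CPM on average at P30 and KLHDC7B 0.9398, well short of P33, while CHRM3 at 0.03804 CPM and MEDAG at 0.7762 CPM had fallen by P30. These steps share libraries with the P33 to P11 difference and describe it.

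Matrix and contractile genes were divided. Of 31 myofibroblast and TGF-beta response genes 11 were called higher and 17 lower. ITGA11, a collagen-binding integrin, went from 43.08, 46.18 and 43.25 CPM to 259.3, 240.9 and 242.4 CPM (5.60-fold higher), and ACTG2, smooth muscle gamma actin, from 1.613, 1.731 and 1.633 CPM to 0.04431, 0.1479 and 0.1519 CPM. The median of the list against P11 was 0.36 at P30 and -0.14 at P33. Of 28 collagens 14 were called higher and 11 lower: COL15A1, of basement membranes, went from 48.73, 48.22 and 47.69 CPM to 451.1, 414.0 and 502.0 CPM (9.45-fold), COL4A6 rose 9.76-fold and COL8A1 5.22-fold, while COL1A1, the main fibril collagen, fell 2.02-fold. Of 42 elastic fibre, proteoglycan and matricellular genes 15 were called higher and 23 lower, with MFAP4, a microfibril protein, 5.28-fold higher and PRELP, a leucine-rich proteoglycan, 5.51-fold lower. FN1, fibronectin, and FAP, fibroblast activation protein, fell 1.75-fold and 1.83-fold, and 10 of the 17 fibroblast identity genes were called lower and 4 higher.

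Signalling lists had members on both sides. Of 27 immediate early genes 16 were called higher and 4 lower. FOS was read at 77.63, 8.282 and 28.51 CPM and FOSB at 57.65, 2.514 and 13.11 CPM in the P33 libraries, against at most 5.601 and 1.699 CPM at P11. P33 replicate 1 was the highest for both, and without it the log2 differences were 2.07 and 2.54 in place of 3.14 and 4.22. Of 28 WNT and Notch genes 10 were called higher and 8 lower (8 and 9 without P11 replicate 1). These shares, 35.7% and 28.6%, lay close to the 32% and 31.3% over all genes tested. TCF7, a factor of WNT signalling, was 3.68-fold lower. HEY1, a Notch target, had a log2 difference of 3.14, and 4.43 without P11 replicate 2. It had few reads, 16 over the P11 libraries and 167 over the P33 libraries. Of 13 prostaglandin and phospholipid genes 3 were called higher and 6 lower, with PTGIS, prostacyclin synthase, 3.15-fold lower. VEGFA, the vascular growth factor, rose 3.44-fold in a glycolysis and hypoxia list with 10 of 30 higher (33.3%) and 12 lower (40%). The mitochondrially encoded MT-ND5 rose 1.52-fold in a list of 13 with 7 higher and none lower. That list had 4 higher and 3 lower without P11 replicate 2, and 4 higher without P33 replicate 3 or with all 21 libraries.

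Antigen presentation and telomere lists had calls on both sides, at shares below those over all genes tested (32% higher and 31.3% lower). Of 20 antigen presentation genes 4 were called higher and 6 lower, none by 2-fold, and without P11 replicate 2 the counts were 7 and 5. B2M, the light chain of HLA class I, went from 465.5, 543.4 and 513.9 CPM to 767.5, 768.0 and 783.8 CPM (1.52-fold higher) and CALR, a chaperone that loads class I, fell 1.81-fold. Of 14 telomere genes 4 were called higher and 3 lower, with TERF2IP and TERF1, both of the shelterin complex, 1.31-fold and 1.30-fold higher and NHP2, of the telomerase particle, 1.43-fold lower. Without P33 replicate 2 the telomere counts were 4 higher and 5 lower.

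P11 being also the passage given DOX, the P33 difference was set against the DOX difference (DOX minus DMSO, at P11). The pair of differences shares no library. DOX and DMSO libraries were counted by another rule for genes that lie inside other genes, so these counts cover only the 10855 genes that overlap no gene on the same strand. Of these 17% were called higher and 21.5% lower with DOX. The difference between the differences, P33 minus P11 less DOX minus DMSO, was called above 0 for 19.2% and below 0 for 20.9%.

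Interferon-stimulated genes went opposite ways. Of 47 members in this count 1 was called higher and 34 lower with DOX (median -0.65), against a median of 0.88 at P33, and the difference was called above 0 for 41 and below 0 for 2. RSAD2 was read at 4.507, 4.427 and 5.34 CPM with DMSO and at 0.9681, 0.7025 and 0.6116 CPM with DOX, and the difference was 5.02 (SE 0.60, adjusted p = 3.12e-08). OAS1 was read at 14.2, 15.4 and 16.31 CPM with DMSO and at 2.057, 2.358 and 2.141 CPM with DOX (difference 4.86). For RSAD2 the difference was 6.14 without P11 replicate 2.

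Cell cycle genes fell in both, further with DOX. The G2 and M phase list had a median of -2.05 with DOX and -0.49 at P33, and of 60 members the difference was called above 0 for 53 and below 0 for none. MKI67 was read at 153.6, 165.7 and 132.3 CPM with DMSO and at 9.964, 6.874 and 9.276 CPM with DOX (log2 difference -4.10, beside -0.79 at P33). LMNB1 had log2 differences of -2.82 with DOX and -1.40 at P33. CDKN1A went from 142.1, 143.8 and 150 CPM with DMSO to 501.8, 497.7 and 463.6 CPM with DOX, a log2 difference of 1.75 beside 0.50 at P33, and the difference of -1.27 was called (adjusted p = 8.205e-16). For the p53 targets the medians were 0.69 with DOX and 0.49 at P33, with the difference called above 0 for 7 and below 0 for 17 of 38.

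Ribosomal protein, cholesterol and SASP genes moved further at P33. All 37 ribosomal protein genes in this count had a difference called below 0, with a median of -0.05 with DOX and -0.57 at P33. Of 20 cholesterol genes 18 had a difference called below 0 and none above, with medians of -0.50 with DOX and -1.29 at P33. Of 37 SASP genes 24 had a difference called above 0 and 6 below, with medians of -0.01 and 0.94. CXCL8 was read at 2.704, 2.486 and 2.406 CPM with DMSO and at 1.049, 1.054 and 0.5097 CPM with DOX, a difference of 4.72. PLAT had log2 differences of -0.14 with DOX and 4.40 at P33. Histone genes had medians of 1.70 with DOX and 1.67 at P33, with a difference called above 0 for 2 and below 0 for 3 of 22, and 18 of the 22 were called higher with DOX.

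The genes with the largest differences included several of those named above. Among genes at 5 CPM or more in at least 1 group, KLHDC7B, LAMP3, PCDH1, PAPPA2 and RSAD2 led the side of P33 by the fitted difference. The differences were 5.66 for LAMP3, 5.32 for PAPPA2 and 5.02 for RSAD2. Those of KLHDC7B and PCDH1 rest on 2 reads each at P11 and are not given, and neither is that of CCL5, which was also called but lay under 5 CPM in every group with 2 reads at P11. DOX itself gave PCDH1 a log2 difference of 2.34 and PAPPA2 of 1.73. TRIM55, PPP1R14A and CNTN3 were among the 5 genes that led the other side, with CHRM3 and WNT2, whose fitted differences rest on 1 read and on none at P33 and so cannot be ranked. TRIM55, a muscle RING finger protein, went from 23.66, 25.36 and 24.63 CPM at P11 to 1.551, 2.662 and 2.481 CPM at P33, but from 4.191, 3.638 and 3.403 CPM with DMSO to 8.471, 9.383 and 9.378 CPM with DOX (difference -4.75, SE 0.17, adjusted p = 3.473e-21). WNT2, a WNT ligand, had 16 reads over the P11 libraries and none over the P33 libraries, at least 6.24-fold higher at P11 against a floor of 3 reads over the group, while its DMSO libraries had 9.87, 10.25 and 9.741 CPM and its DOX libraries 9.843, 11.49 and 9.582 CPM. The DMSO and untreated P11 libraries differ in level for WNT2 and TRIM55, and DMSO, the counting and any other difference between these library sets cannot be told apart there.

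**Figure D5:**
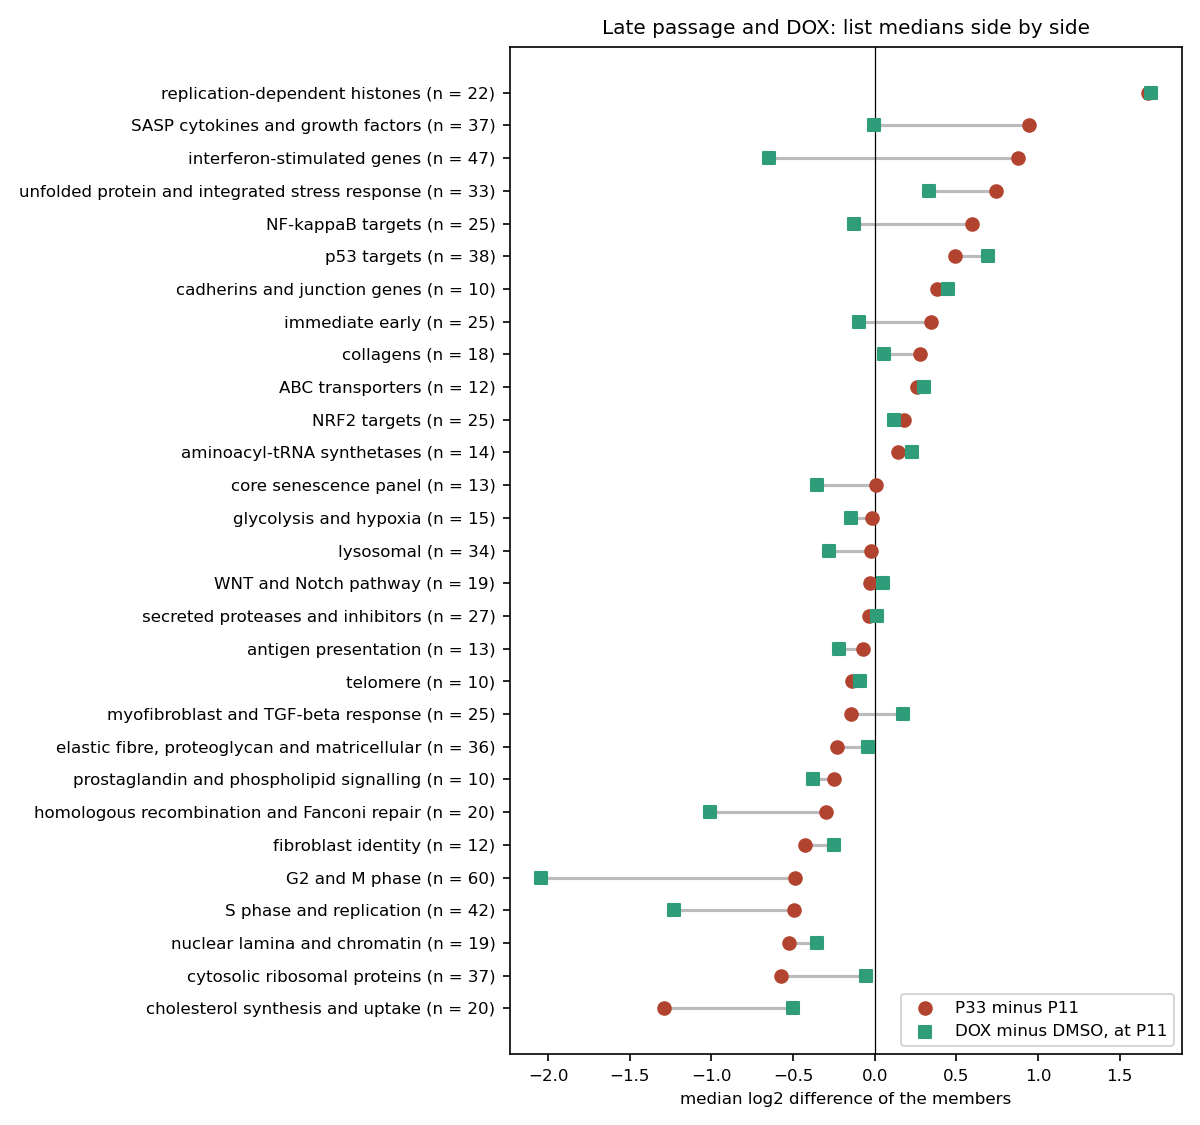
Median log2 difference of gene lists for P33 minus P11 (circles) and DOX minus DMSO at P11 (squares), over n members that overlap no gene on the same strand, joined by a line. Interferon-stimulated genes lie at 0.88 and -0.65, G2 and M phase genes at -0.49 and -2.05, and histone genes at 1.67 and 1.70.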

How the data were processed

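The authors deposited raw whole-number counts of reads on each gene in 21 libraries, from RNA selected for poly(A) tails and primed at random. The submitters' processing notes name HISAT2 2.1.0, featureCounts 2.0.1 of Subread, cutadapt 3.3, SAMtools 1.11, FastQC 0.11.9 and DESeq2 1.34.0, and the build hg38 (GRCh38.p13). Their roles and options, strand included, were not given in the sources used. The length the table gives equals the whole gene span, so levels are not compared between genes. The members, lists and tests were chosen with earlier results of these data known.

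Counts were analysed in edgeR 4.0.16 (R 4.3.3, limma 3.58.1): filterByExpr with a minimum count of 10, TMM (factors 0.9328 to 1.074), and a two-sided quasi-likelihood test with a mean per group over the 15 passage libraries (10 residual degrees of freedom, biological coefficient of variation 5.04%), adjusted by Benjamini-Hochberg over 15642 genes. DOX and DMSO libraries were left out of this fit because, of 9427 genes nested in a same-strand gene, 0 had reads in passage libraries and 3949 had reads in DOX and DMSO libraries. A fit over all 21 libraries (14 residual degrees of freedom) gave the DOX effect and the difference of effects. Of the genes tested 4989 overlap another on the same strand and 9712 one on the opposite strand. Not every opposite-strand overlap is named above.

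Named genes were the core senescence panel, the 10 largest rises and 10 largest falls among called protein-coding genes at 5 CPM or more in the higher group, with no overlap of libraries and of genes on the same strand, the 4 called members of each list with the largest change at 1 CPM or more (exceptions to a list's direction may be named too), and the 5 largest differences from DOX in each direction at 5 CPM or more in any group. Some genes that the rule names are not reported here. There were 37 lists. They overlap in places, CXCL10 and ATF3 being in more than 1. A group with no read was set at a floor of 3 reads over its libraries. Such floors, and the counting intervals, take in no error but that of counting, as PCR copies are not separate molecules. On simulated data with 200 changed genes the fit recovered 83.6%, 95.5% and 100% of 1.5-fold, 2-fold and 4-fold changes for P33 against P11 over 15642 genes (7.46% of calls false), and 67.2%, 83.6% and 98.5% for the difference over 16821 genes (5.14% false). In the data 63.3% of genes were called for P33 against P11, far more than were changed in the simulation, so these shares need not hold there. Replicate pairs differed beyond sampling noise in both groups. Alternatives were DESeq2 1.42.0, its size factors, other filters, other sets of libraries, a replicate block, overlapping genes left out, and each library left out. Figures were drawn with matplotlib 3.10.9.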

Additional observations from a re-analysis of the deposited data

How the results depend on the processing

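No called named gene changed sign under the alternatives run, and CDKN2A, near 0 and not called, lay below 0 in 5 of them. The balance of calls did turn: P33 against P11 had 5013 higher and 4894 lower but 4660 and 4995 with all 21 libraries. The difference from the DOX effect had 2084 above 0 and 2266 below, and more above than below with DESeq2 (2085 and 2028), with its size factors (2186 and 2124), without a filter (2074 and 1930), at 1 CPM (2097 and 1923), with overlapping genes left out (2247 and 2051), and without P33 replicate 2, P33 replicate 3 or DMSO replicate 2. The count of genes higher by at least 2-fold was 1726 and became 1041 with a minimum mean of 1 CPM, where fewer genes are tested. Every other count over all genes stayed within 1.5 times its value. Leaving out each library in turn gave 9246 to 9428 genes called (9907 with all), 4687 to 4787 higher and 4559 to 4668 lower, 1715 to 1817 higher and 723 to 740 lower by at least 2-fold, and for the difference from the DOX effect 1872 to 2109 above 0 and 1924 to 2231 below. DESeq2 called 9235 genes. Without a filter 10279 were called, with the P11 and P33 libraries alone 9653, with all 21 libraries 9655 and with DESeq2's size factors 9903.

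Same-numbered P11 and P33 libraries did not deviate together (correlations -0.013, 0.033 and -0.042 over 10484 genes at 5 CPM or more). Differently numbered libraries had correlations from -0.068 to 0.093. These values gave no sign of a pairing by number, but with 3 libraries per group they cannot exclude one. With a replicate block 9865 genes were called, 4993 higher and 4872 lower, and the difference gave 2065 and 2226.

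Of 2199 values of named genes 2177 kept their call, and the 22 others fell in 6 genes (MT-ND6, IL6, TEK, GLB1, RB1 and TP53BP1). Counting both directions, 972 of 1036 list counts stayed within 1.5 times. Of the 64 others, in 22 lists, 56 started from under 10 members. The balance turned 5 times in 4 lists: antigen presentation, telomere, WNT and Notch, and lysosomal (16 higher and 17 lower, 17 and 16 at a minimum mean of 1 CPM). Genes with few reads are limited by depth: a count of 0 over the P33 libraries allows up to 3 reads.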
